A study of Mus musculus with 9 samples.

Results

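The Cyp2c, Cyp2d, Cyp2f, Cyp2g and Cyp2j enzymes of mouse liver were followed through thioacetamide (TAA) injury and recovery. The members were all genes whose symbol begins with Cyp2 and 1 of the letters c, d, f, g or j followed by a digit, which gave 33 of the 21873 genes listed. Of these, 15 belonged to Cyp2c, 8 to Cyp2d, 8 to Cyp2j, and 1 each to Cyp2f (Cyp2f2) and Cyp2g (Cyp2g1). The other 16 Cyp2 genes of the table, among them Cyp2e1, were used only for comparison.

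Liver RNA was sequenced from 9 male C57BL/6 mice, with 3 mice in a control group, 3 in a TAA group and 3 in a recovery group. Injections into the peritoneum began at 8 weeks of age and were repeated every 3 days for 8 weeks, with TAA at 200 mg/kg in the TAA and recovery groups and with saline in the control group. Control and TAA livers were taken 72 h after the last injection, and recovery livers after 8 further weeks without injection. The recovery mice were therefore 8 weeks older than the control and TAA mice, and recovery and age cannot be told apart in either comparison. TAA is itself activated by P450 enzymes of the hepatocyte, and the model holds whole liver from male mice of a single strain.

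These genes encode microsomal cytochrome P450 monooxygenases, which take electrons from the reductase Por and insert oxygen into drugs, steroids, bile acids and fatty acids. In liver they are made mainly by hepatocytes. Cyp2c and Cyp2j enzymes are known as arachidonic acid epoxygenases, whose epoxides are hydrolysed by the epoxide hydrolase Ephx2. Many mouse Cyp2c and Cyp2d genes differ between the sexes under the control of growth hormone, and many answer to the xenobiotic receptor Nr1i3 (CAR) and to the hepatocyte factor Hnf4a.

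Levels are given as scaled FPKM, a count of fragments relative to gene length and library size, divided by 1 factor per library. The factors of control livers were 0.827 to 0.878, those of TAA livers 1.29 to 1.38 and those of recovery livers 0.893 to 0.907, so that TAA levels were lowered relative to control by 0.64 on the log2 scale. Libraries held an estimated 27.0 to 40.7 M fragments. Changes are log2 fold changes from limma with their standard error (SE), with p adjusted by the Benjamini-Hochberg method over 14094 tested genes. DEGs had an adjusted p under 0.05 and a fold change of at least 2, and "rose" and "fell" are used only for them. Of the 33 genes, 26 had the mean FPKM of 0.1 needed for the test.

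Together, the 33 genes had a summed level of 3919, 3510 and 3662 scaled FPKM in the 3 control livers, of 1374, 1328 and 1227 in the TAA livers and of 3836, 3399 and 3634 in the recovery livers. Every TAA liver lay below every other liver, and the control and recovery livers overlapped. The mean was 3697 ± 206 in control, 1310 ± 75.5 in TAA and 3623 ± 219 in recovery livers (SD, n = 3). In the FPKM as deposited, the TAA sum was 0.551 of the control sum, against 0.354 after scaling. In whole tissue, fewer hepatocytes and less of an RNA per hepatocyte cannot be told apart.

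Relative to control livers, 16 of the 26 tested genes fell in TAA livers and 2 rose. Among all tested genes 8.02% were lower DEGs and 17% were higher DEGs. The median change was -1.59 over the 26 genes and 0.02 over all tested genes. Without scaling, 12 fell and 2 rose, and with quantile normalization 14 fell and 3 rose. All 7 tested Cyp2d genes, 7 of 13 Cyp2c genes and 2 of 4 Cyp2j genes were among the 16, while Cyp2f2 and Cyp2g1 were not. Without scaling 4 Cyp2d, 6 Cyp2c and 2 Cyp2j genes fell. With quantile normalization 5 Cyp2d, 6 Cyp2c and 2 Cyp2j genes fell, as did Cyp2g1.

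**Figure D1:**
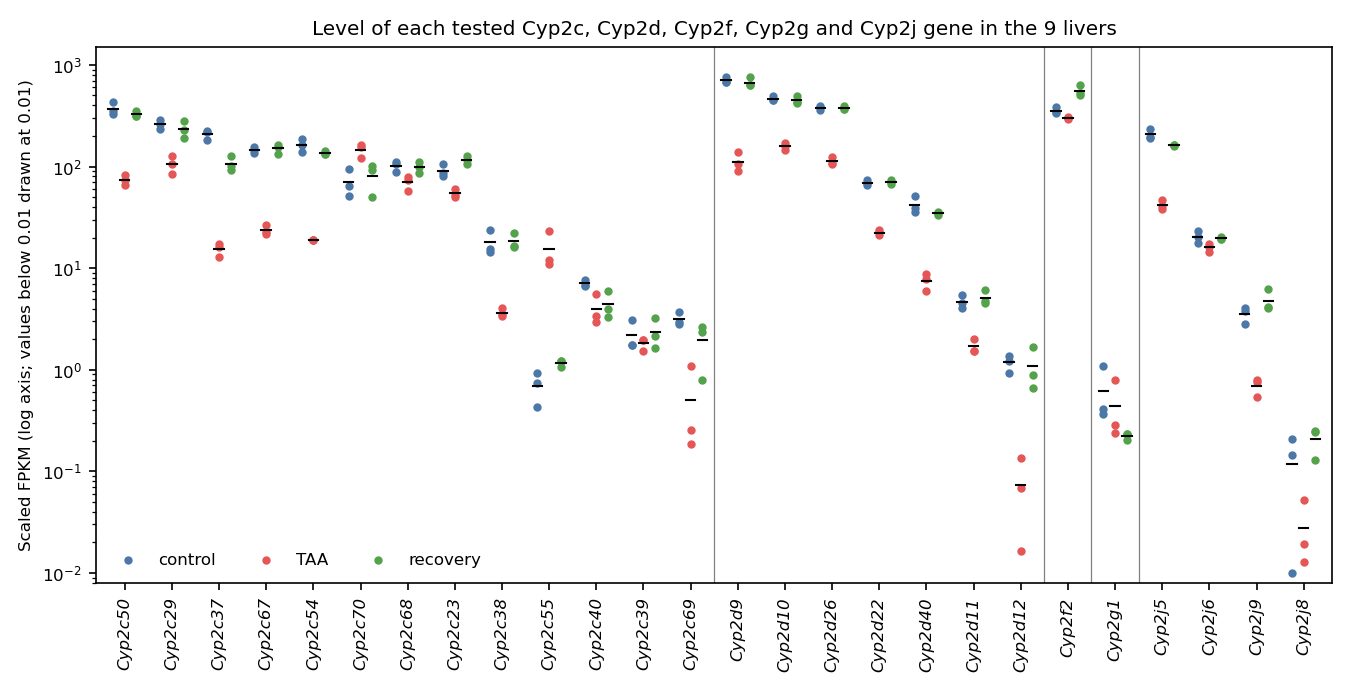
Scaled FPKM of the 26 tested genes (log axis) in each of the 9 livers, with the bar at the group mean and vertical lines between subfamilies. All 7 Cyp2d genes fell in TAA relative to control livers, where 8.02% of all tested genes were lower DEGs. Without scaling 4 of these 7 fell, and with quantile normalization 5. Cyp2c55 and Cyp2c70 rose, where 17% of all tested genes were higher DEGs.

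The recovery group was next compared with the TAA group. In it, 18 of the 26 tested genes rose and 1, Cyp2c55, fell, where 7.12% of all tested genes were higher DEGs and 14.3% were lower DEGs. The median change was 1.59, against -0.01 over all tested genes. Both comparisons use the same TAA livers, so that a low TAA level enters each of them. Without scaling, 13 rose and 3 fell, the 3 being Cyp2c55, Cyp2c70 and Cyp2g1, and with quantile normalization 14 rose and 2, Cyp2c55 and Cyp2c70, fell.

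Against the control group, none of the 26 genes was a DEG in the recovery group by limma, where 0.582% of all tested genes were higher DEGs and 0.412% were lower DEGs. An adjusted p under 0.05 at any fold change was reached by 2 of the 26, Cyp2c37 and Cyp2f2. Among all tested genes, 2.7% passed this criterion. The median change was -0.04.

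**Figure D2:**
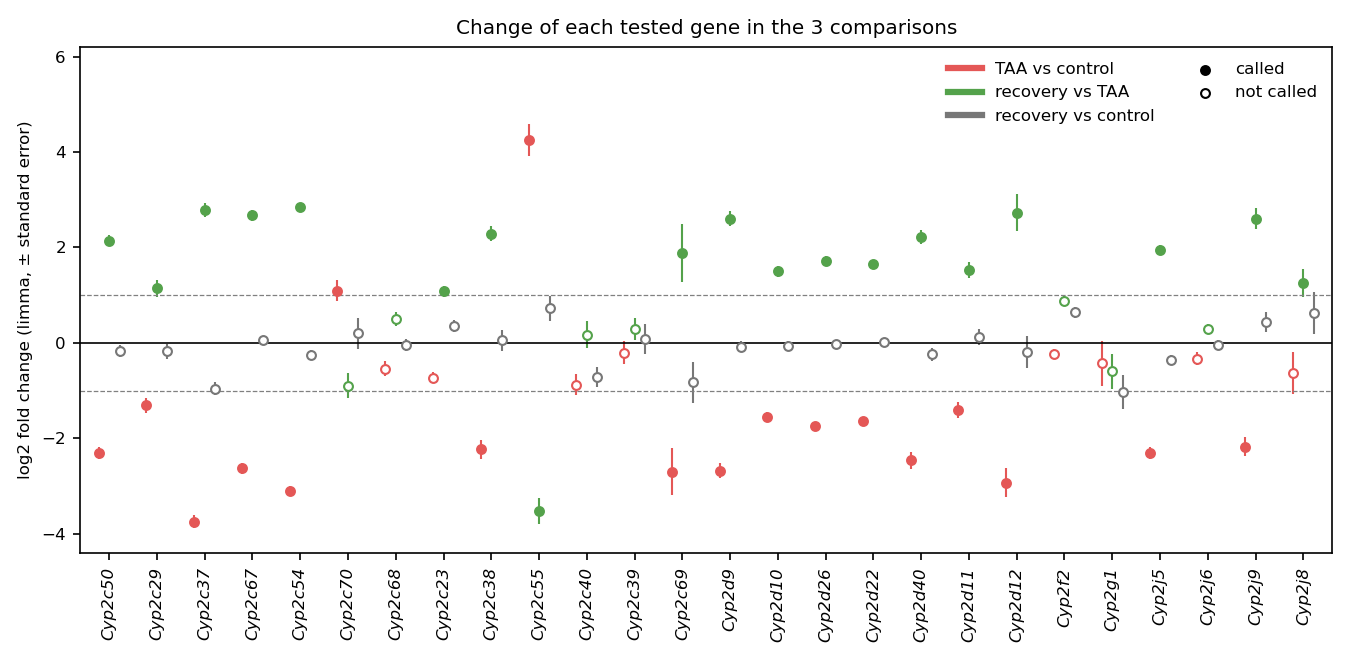
log2 fold change ± SE (limma) of the 26 tested genes in TAA relative to control livers, recovery relative to TAA livers and recovery relative to control livers, with filled points for DEGs and dashed lines at a fold change of 2. In the last comparison no point is filled and the values lie between -1.03 and 0.72. The direction of the open points of Cyp2f2, Cyp2c39, Cyp2c68, Cyp2g1 and Cyp2j6 in the first comparison turns with the scaling.

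Cyp2d genes lie together on chromosome 15 and carried the largest summed level of the subfamilies in control liver. The Cyp2d sum was 1670 ± 48.2 in control, 415.8 ± 31.8 in TAA and 1605 ± 129 in recovery livers (SD, n = 3). Cyp2d9, a male-predominant testosterone hydroxylase at chr15:82433437-82456845, had the highest level of the 33 genes in control liver. It was at 682, 673 and 765 in the control livers, at 138, 90.6 and 106 in the TAA livers and at 754, 629 and 627 in the recovery livers. The TAA livers stood apart from the others, and control and recovery livers overlapped. Cyp2d9 fell in the TAA group (-2.68, SE 0.16, adjusted p = 1.63e-05) and rose in recovery relative to TAA livers (2.60, SE 0.16, adjusted p = 2.22e-05).

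Cyp2d10, the next in level, was at 493, 452 and 454 in control, 172, 146 and 159 in TAA and 497, 429 and 422 in recovery livers. Cyp2d26 was at 393, 385 and 361 in control, 107, 124 and 109 in TAA and 391, 366 and 366 in recovery livers. For both, no TAA liver reached the lowest liver of another group. Cyp2d10 fell 2.93-fold in the TAA group (-1.55, SE 0.10, adjusted p = 2.18e-05) and Cyp2d26 fell 3.35-fold (-1.75, SE 0.10, adjusted p = 1.25e-05). Quantile normalization reduced these changes to -0.52 and -0.83, and in the FPKM as deposited Cyp2d10 was at -0.91, each below a fold change of 2. Cyp2d10 became the leading Cyp2d gene in TAA livers, with 38.3 ± 0.83% of the Cyp2d sum against 27.9 ± 1.4% in control livers, whereas the share of Cyp2d9 was 26.7 ± 3.7% against 42.3 ± 2.1% (SD, n = 3).

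Among the lower Cyp2d genes, Cyp2d22, which is compared with the human drug-metabolising CYP2D6, was at 68.4, 66.3 and 73.4 in control, 23.5, 21.1 and 22.5 in TAA and 71.0, 73.3 and 67.0 in recovery livers. Cyp2d40 was at 38.8, 35.6 and 51.4 in control, 8.66, 6.01 and 7.86 in TAA and 33.7, 35.2 and 35.8 in recovery livers. Both were lower in every TAA liver than in any other, and fell by 1.63 (SE 0.08) and 2.46 (SE 0.18) on the log2 scale, with adjusted p = 1e-05 and 3.68e-05. Cyp2d11 was at 4.06, 4.55 and 5.41 in control, 2.02, 1.54 and 1.54 in TAA and 6.06, 4.74 and 4.51 in recovery livers, and fell 2.65-fold (adjusted p = 0.000323). Without scaling, Cyp2d22 was at -0.99 and Cyp2d11 at -0.79, which is below a fold change of 2. Of the 150-base windows in the transcripts of Cyp2d11, 5.62% occurred also in another gene, most often in Cyp2d10. The mean control level was 4.67 for Cyp2d11 and 466 for Cyp2d10. The part of Cyp2d10 reads in the Cyp2d11 values was not tested. Cyp2d12 was at 0.926, 1.23 and 1.38 in control, 0.135, 0.0678 and 0.0166 in TAA and 1.69, 0.885 and 0.667 in recovery livers. It fell in the TAA group (-2.93, SE 0.30, adjusted p = 0.000168), a value that depended on the 0.1 added to each FPKM and was -1.02 with 1 added and -4.13 with 0.01 added.

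All 7 tested Cyp2d genes rose in recovery relative to TAA livers, by 1.5 (Cyp2d10) to 2.73 (Cyp2d12). With 1 added to each FPKM, Cyp2d12 was at 0.93 in that comparison and no longer a DEG. The same held without scaling for Cyp2d10 (0.93) and Cyp2d11 (0.99), and with quantile normalization for Cyp2d10 (0.57) and Cyp2d26 (0.93). Against the control group the 7 changes lay between -0.24 and 0.12, with adjusted p of 0.339 or more, and the control and recovery livers overlapped for each gene. The remaining gene of the subfamily, Cyp2d34, was above 0 in a single TAA liver, at 0.0124.

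Cyp2c genes occupy a cluster on chromosome 19, where Cyp2c55 comes first and Cyp2c70 last, with Cyp2c23 farther along the same chromosome. The Cyp2c sum was 1440 ± 134 in control, 533.4 ± 66.4 in TAA and 1276 ± 109 in recovery livers (SD, n = 3). Promoters of Cyp2c67, Cyp2c68 and Cyp2c69, which resemble each other, are shown here beside those of Cyp2c70 and Cyp2c55, the pair that rose. The stretches are 110 bases of the RefSeq promoters (GRCm38.p6), read 5′ to 3′ on the strand of the gene. Capitals mark the HNF4A motif CAAAGTCCA and the TATA motif TATAAA, which reads TTTATA when it lies on the other strand. The marked TATAAA begins 40 bases before the RefSeq start site in Cyp2c67 and 29 before it in Cyp2c70 and Cyp2c55, but 10 bases after it in Cyp2c69. Cyp2c67 is shown from chr19:39649073-39649182 (minus strand), Cyp2c68 from chr19:39741084-39741193 (minus), Cyp2c69 from chr19:39886750-39886859 (minus), Cyp2c70 from chr19:40187256-40187365 (minus) and Cyp2c55 from chr19:39006905-39007014 (plus).
Cyp2c67: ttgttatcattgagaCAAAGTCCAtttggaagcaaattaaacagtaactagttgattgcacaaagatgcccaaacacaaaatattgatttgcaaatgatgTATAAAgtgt
Cyp2c68: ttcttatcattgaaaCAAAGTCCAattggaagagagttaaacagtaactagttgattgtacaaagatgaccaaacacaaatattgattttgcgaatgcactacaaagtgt
Cyp2c69: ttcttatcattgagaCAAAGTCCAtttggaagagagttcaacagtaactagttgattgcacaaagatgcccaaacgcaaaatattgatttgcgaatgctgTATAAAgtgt
Cyp2c70: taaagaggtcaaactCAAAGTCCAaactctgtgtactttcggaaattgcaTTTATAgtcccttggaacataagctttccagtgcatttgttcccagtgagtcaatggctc
Cyp2c55: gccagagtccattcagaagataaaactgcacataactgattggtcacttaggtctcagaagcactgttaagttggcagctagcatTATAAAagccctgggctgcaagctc

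The stretch of Cyp2c40 at chr19:39812765-39812874 (minus strand) had the same 110 letters as that of Cyp2c69, with TATAAA 40 bases after its start site. Those of Cyp2c67 and Cyp2c68 differed at 19 of 110 bases, those of Cyp2c67 and Cyp2c69 at 8, and that of Cyp2c70 differed from the other 4 at 75 or 76. Promoters were found for 26 of the 33 genes, with 28 start sites. CAAAGTCCA, searched on both strands over 250 bases before and 50 after the start site, was present in 6 of these 28 promoters, all of Cyp2c genes (Cyp2c40, Cyp2c65, Cyp2c67, Cyp2c68, Cyp2c69 and Cyp2c70), and in 0.475% of 32851 promoters in all. TATAAA was in 16 of the 28 and in 13.6% of all, and the STAT5 motif TTCNNNGAA was in 2, Cyp2j11 and Cyp2j12, and in 8.3% of all. The C/EBP motif TTGCGCAA and the HNF1 motif GTTAATNAT were in none of the 28, and in 0.183% and 0.801% of all. Among the genes with CAAAGTCCA, Cyp2c67 and Cyp2c69 fell in TAA livers, Cyp2c70 rose, Cyp2c40 and Cyp2c68 were not DEGs and Cyp2c65 was not tested. The promoters of Cyp2c37 and Cyp2c50, which also fell, held none of the motifs searched.

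**Figure D3:**
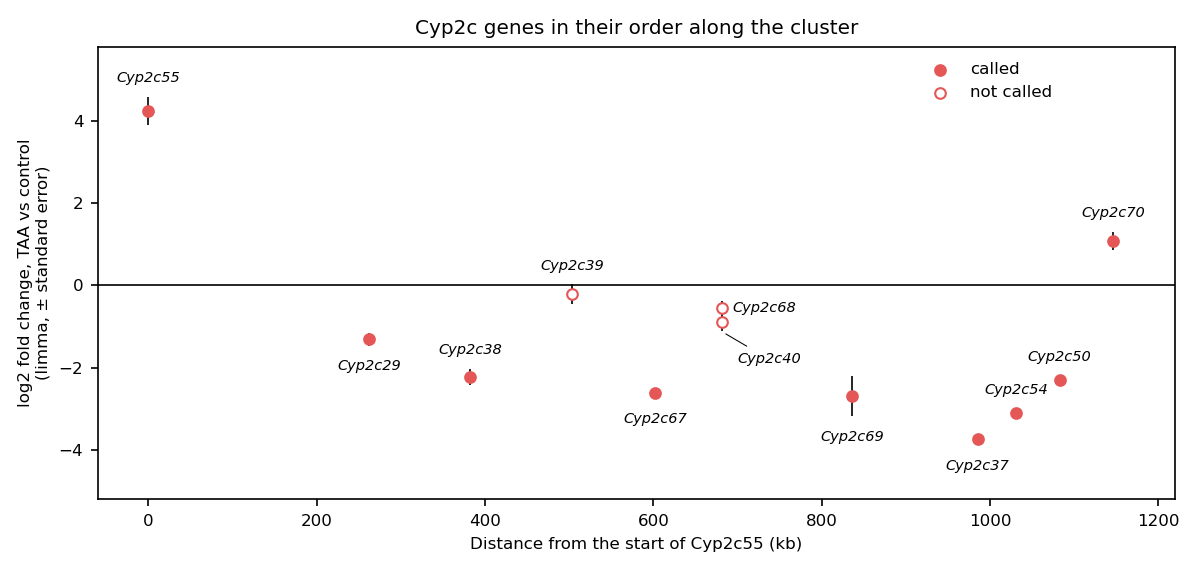
log2 fold change ± SE (limma, TAA relative to control) of 12 tested Cyp2c genes by distance of their lower end from the start of Cyp2c55, with filled points for DEGs. The genes at the 2 ends, Cyp2c55 at 4.25 and Cyp2c70 at 1.09, rose, and the DEGs between them fell. The direction of the open points of Cyp2c39 and Cyp2c68 turns with the scaling.

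Cyp2c37, Cyp2c54 and Cyp2c50, arachidonic acid epoxygenases or hydroxylases, lie next to each other near the end of the cluster. Cyp2c37 was at 223, 181 and 220 in control, 16, 17.3 and 12.9 in TAA and 92.9, 128 and 101 in recovery livers. No group overlapped another, with recovery livers between the TAA and control livers. Cyp2c37 fell 13.4-fold in the TAA group (-3.75, SE 0.14, adjusted p = 2.91e-06), the largest fall among the 26 genes, and rose 6.89-fold in recovery relative to TAA livers (adjusted p = 1.25e-05). It was 1.95-fold lower in recovery than in control livers (-0.96, SE 0.14, adjusted p = 0.031), short of a DEG, and the adjusted p was 0.0552 to 0.112 when any 1 mouse was left out.

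Cyp2c54 was at 187, 140 and 164 in control, 18.7, 19.0 and 18.9 in TAA and 134, 143 and 133 in recovery livers. Cyp2c50, the leading Cyp2c gene of control liver, was at 427, 328 and 353 in control, 83.0, 73.3 and 66.0 in TAA and 314, 311 and 351 in recovery livers. The TAA livers of both genes stood apart. Cyp2c54 fell 8.59-fold (-3.10, SE 0.11, adjusted p = 2.97e-06) and Cyp2c50 fell 4.97-fold (-2.31, SE 0.13, adjusted p = 1.42e-05), and both rose in recovery relative to TAA livers (2.85, SE 0.08, adjusted p = 1.4e-06, and 2.14, SE 0.11, adjusted p = 9.91e-06).

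Cyp2c29, an epoxygenase induced through Nr1i3, was at 289, 233 and 260 in control, 105, 126 and 85.2 in TAA and 227, 189 and 281 in recovery livers. It fell 2.49-fold in the TAA group (-1.31, SE 0.16, adjusted p = 0.000342), but was at -0.68 without scaling and at -0.48 with quantile normalization. Its rise in recovery relative to TAA livers (1.14, SE 0.18, adjusted p = 0.00151) was 0.98 without TAA mouse 3 0.57 without scaling and 0.41 with quantile normalization, and was then no DEG. The same held without recovery mouse 3. Its share of the Cyp2c sum, which the factor of a library does not alter, was 18.1 ± 0.59% in control, 19.7 ± 1.9% in TAA and 18.1 ± 2.0% in recovery livers (SD, n = 3), and it remained the second Cyp2c gene in each group. Cyp2c38, its neighbour, was at 23.9, 14.5 and 15.3 in control, 3.53, 4.03 and 3.35 in TAA and 16.5, 16.2 and 22.1 in recovery livers, and fell 4.7-fold (adjusted p = 8.15e-05). Cyp2c39, a retinoic acid hydroxylase, was at 3.07, 1.77 and 1.74 in control, 1.96, 1.53 and 1.98 in TAA and 1.63, 3.22 and 2.14 in recovery livers, and the 3 groups overlapped. Its change in TAA livers was -0.21 (SE 0.24, adjusted p = 0.474), and 0.39 without scaling.

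Cyp2c67, Cyp2c68, Cyp2c40 and Cyp2c69 had the most similar coding sequences of the 33 genes, with identities of 96.5% to 98.1% between them. Cyp2c67 was at 157, 144 and 135 in control, 26.5, 22.7 and 21.6 in TAA and 155, 134 and 164 in recovery livers, and fell 6.17-fold in TAA livers (-2.63, SE 0.11, adjusted p = 3.99e-06). Cyp2c68 was at 112, 105 and 87.7 in control, 78.9, 73.7 and 57.7 in TAA and 98.2, 86.7 and 111 in recovery livers. Its change in TAA livers was -0.54 (SE 0.15, adjusted p = 0.0156) after scaling, but 0.10 without scaling and 0.14 with quantile normalization. Cyp2c67 was thus the higher of the pair in every control and recovery liver, and Cyp2c68 in every TAA liver. Cyp2c40 was at 7.70, 6.66 and 6.88 in control, 5.53, 3.35 and 2.94 in TAA and 5.89, 3.33 and 3.99 in recovery livers. Its change in TAA livers was -0.88 (SE 0.22, adjusted p = 0.0122), and became -1.14 and a DEG without TAA mouse 1. That change was -0.26 without scaling (adjusted p = 0.295) and -0.93 with quantile normalization (adjusted p = 0.0181). Cyp2c69 was at 3.71, 2.92 and 2.81 in control, 1.08, 0.187 and 0.256 in TAA and 2.65, 0.784 and 2.37 in recovery livers. It fell in the TAA group (-2.70, SE 0.49, adjusted p = 0.0027), by 3.32 on the log2 scale without TAA mouse 1 and by 1.5 with 1 added to each FPKM.

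Cyp2c69 also rose in recovery relative to TAA livers (1.88, SE 0.61, adjusted p = 0.0338), although recovery mouse 2 lay below TAA mouse 1. Leaving out 1 mouse gave values of 1.48 (without TAA mouse 2) to 2.49 (without TAA mouse 1) and ended the call in 4 of 6 cases, and it ended as well without scaling (1.42), without the filter (adjusted p = 0.0756), without the variance trend (adjusted p = 0.0506) and with 1 added (0.94). In GENCODE M21 transcripts, 20.27% of the 150-base windows of Cyp2c40, 20.16% of those of Cyp2c69, 13.01% of those of Cyp2c67 and 8.83% of those of Cyp2c68 occurred also in another gene. The locus given for Cyp2c40 in the table (chr19:39688847-39849461) is wider than in GENCODE M21 and overlaps those of Cyp2c68 and Cyp2c69. The values of the 4 genes are uncertain for the shared windows, and those of Cyp2c40, Cyp2c68 and Cyp2c69 also for the locus.

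Cyp2c70, which makes muricholic acids in mice, was at 51.5, 94.7 and 63.6 in control, 154, 162 and 122 in TAA and 91.6, 50.1 and 102 in recovery livers. TAA livers were above all others, and control and recovery livers overlapped. Cyp2c70 rose 2.14-fold in the TAA group (1.09, SE 0.22, adjusted p = 0.00445), but the value was 0.89 without control mouse 1 and then below a fold change of 2. It was 1.73 without scaling and 1.85 with quantile normalization. Its change in recovery relative to TAA livers was -0.90 (SE 0.26, adjusted p = 0.0206), with DEGs called without TAA mouse 3, without recovery mouse 1 and without recovery mouse 3, where it reached -1.09. Without scaling that change was -1.46 and with quantile normalization -1.60. Cyp2c70 held 3.24%, 7.10% and 4.55% of the Cyp2c sum in the control livers, 27.2%, 28.1% and 26.6% in the TAA livers and 7.24%, 4.28% and 7.31% in the recovery livers. It was the eighth Cyp2c gene by level in control and recovery livers and the first in TAA livers.

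Cyp2c55, a fatty acid hydroxylase known from the colon and inducible in liver, had the largest change of the 26 genes. It was at 0.926, 0.736 and 0.426 in control, 10.9, 23.4 and 11.9 in TAA and 1.07, 1.21 and 1.21 in recovery livers. No group overlapped another. These levels stood for about 24.5 to 44.7 fragments in control livers, 1130 to 2390 in TAA livers and 67.3 to 88.6 in recovery livers. Cyp2c55 rose 19-fold in the TAA group (4.25, SE 0.34, adjusted p = 5.69e-05) and fell 11.5-fold in recovery relative to TAA livers (-3.53, SE 0.27, adjusted p = 4.66e-05). With 1 added to each FPKM these changes were 3.21 and -2.84. In recovery livers it was at 0.72 against control livers (SE 0.26, adjusted p = 0.169). Its level in TAA livers was still 2.86 ± 1.1% of the Cyp2c sum (SD, n = 3). Cyp2c65, its neighbour, was below the filter, at 0 in all control livers and at 0.0593, 0.174 and 0.082 in TAA livers, or about 5.96, 17.2 and 8.40 fragments. In recovery livers it was above 0 only in mouse 1, at 0.0332. Cyp2c66, next to it, was listed at 0 in all 9 libraries. Of 4 markers of the small intestine, the 2 tested ones went opposite ways in the TAA group (1 rose and 1 fell), and the summed level of the 4 was 57.2 to 72.4 in control, 15.7 to 20.6 in TAA and 41.4 to 62.0 in recovery livers, with Alpi at 0 in all control livers. The part of other tissues in the Cyp2c55 level was not tested.

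Cyp2c23, an epoxygenase outside the cluster, was at 105, 80.7 and 86.1 in control, 60.1, 50.5 and 52.7 in TAA and 126, 105 and 116 in recovery livers. Its change in the TAA group was -0.73 (SE 0.12, adjusted p = 0.00189), below a fold change of 2. Without scaling it was -0.09 (adjusted p = 0.459) and with quantile normalization -0.11 (adjusted p = 0.422). Cyp2c23 rose 2.12-fold in recovery relative to TAA livers (1.08, SE 0.11, adjusted p = 0.00014). That change was 0.52 both without scaling and with quantile normalization. Of the 13 tested Cyp2c genes, 8 rose and 1 fell in recovery relative to TAA livers. Against the control group the Cyp2c changes lay between -0.96 (Cyp2c37) and 0.72 (Cyp2c55).

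The 8 Cyp2j genes lie in a row on chromosome 4, and Cyp2j5, an epoxygenase of kidney and liver at chr4:96628773-96664154, had the largest share of the Cyp2j sum, with 89.7 ± 0.75% in control, 71.4 ± 1.0% in TAA and 86.8 ± 0.78% in recovery livers (SD, n = 3). Cyp2j5 was at 236, 192 and 196 in control, 47.0, 40.5 and 38.0 in TAA and 158, 163 and 164 in recovery livers. The groups did not overlap. It fell 4.96-fold in the TAA group (-2.31, SE 0.12, adjusted p = 1.05e-05) and rose 3.86-fold in recovery relative to TAA livers (1.95, SE 0.10, adjusted p = 9.56e-06). Every recovery liver remained below every control liver, and this change was -0.36 (SE 0.10, adjusted p = 0.0971). Cyp2j9 was at 2.79, 4.01 and 3.75 in control, 0.764, 0.794 and 0.537 in TAA and 6.18, 4.02 and 4.19 in recovery livers, and fell 4.53-fold (adjusted p = 0.000109) before rising 6.08-fold (adjusted p = 6.46e-05). With 1 added to each FPKM, the log2 changes of Cyp2j9 were -1.40 and 1.75.

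Cyp2j6, known from the small intestine, was at 23.2, 20.1 and 17.5 in control, 17.3, 16.3 and 14.4 in TAA and 19.4, 19.2 and 20.1 in recovery livers. Its change in the TAA group was -0.33 (SE 0.13, adjusted p = 0.0565) after scaling and 0.30 (SE 0.11, adjusted p = 0.0334) without it. Its share of the Cyp2j sum was 8.72 ± 0.61% in control, 27.3 ± 0.86% in TAA and 10.5 ± 0.20% in recovery livers (SD, n = 3). Cyp2j8 was at 0, 0.146 and 0.207 in control, 0.0128, 0.0519 and 0.0194 in TAA and 0.251, 0.242 and 0.129 in recovery livers, or at most 13.3 fragments in any library. It rose in recovery relative to TAA livers (1.25, SE 0.29, adjusted p = 0.00808), but was at 0.23 with 1 added to each FPKM. In TAA relative to control livers it was at -0.63 (SE 0.44, adjusted p = 0.262), and at -1.13 and a DEG without control mouse 1, in which it was at 0. The other 4 Cyp2j genes were not tested. Cyp2j11 and Cyp2j13 did not pass 0.0288 in any library, and Cyp2j7 and Cyp2j12 were listed at 0 in all of them.

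Cyp2f2, which oxidises naphthalene and in liver is known from periportal hepatocytes, was a DEG in no comparison after scaling. It was at 385, 343 and 336 in control, 291, 303 and 310 in TAA and 633, 503 and 532 in recovery livers. The groups did not overlap, and recovery livers were the highest. As deposited, however, the TAA livers were at 375.1, 399.7 and 427.1 and above the control livers at 318, 293.3 and 295.2. The change in the TAA group was -0.23 (SE 0.10, adjusted p = 0.0763) after scaling, but 0.41 (SE 0.09, adjusted p = 0.00467) without scaling and 1.01 (SE 0.11, adjusted p = 0.000263) with quantile normalization, where it was the third gene to rise. In the recovery group it was at 0.88 (SE 0.11, adjusted p = 0.000548) against the TAA group, though at -0.28 with quantile normalization. Against the control group it was at 0.64 (SE 0.11, adjusted p = 0.0454), a fold change of 1.56 and short of a DEG. It was at 0.72 without scaling and at 0.73 with quantile normalization, and the adjusted p was 0.0689 to 0.131 when any 1 mouse was left out. Markers of the airway club cell, another source of Cyp2f2, were at or near 0: Scgb1a1, Scgb3a2 and Sftpc were at 0 in all libraries, and the 4 markers summed to at most 0.0125. Of the exonic bases of Cyp2f2, 13.5% overlap the antisense gene Gm15883, and reads of the pair cannot be told apart without strand. Cyp2g1, an enzyme of olfactory mucosa, was at 0.370 to 1.08 in control, 0.238 to 0.784 in TAA and 0.203 to 0.233 in recovery livers and was no DEG in any comparison after scaling. It became one with quantile normalization in TAA relative to control livers (-1.28, adjusted p = 0.0499) and without scaling in recovery relative to TAA livers (-1.03, adjusted p = 0.0381).

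**Figure D4:**
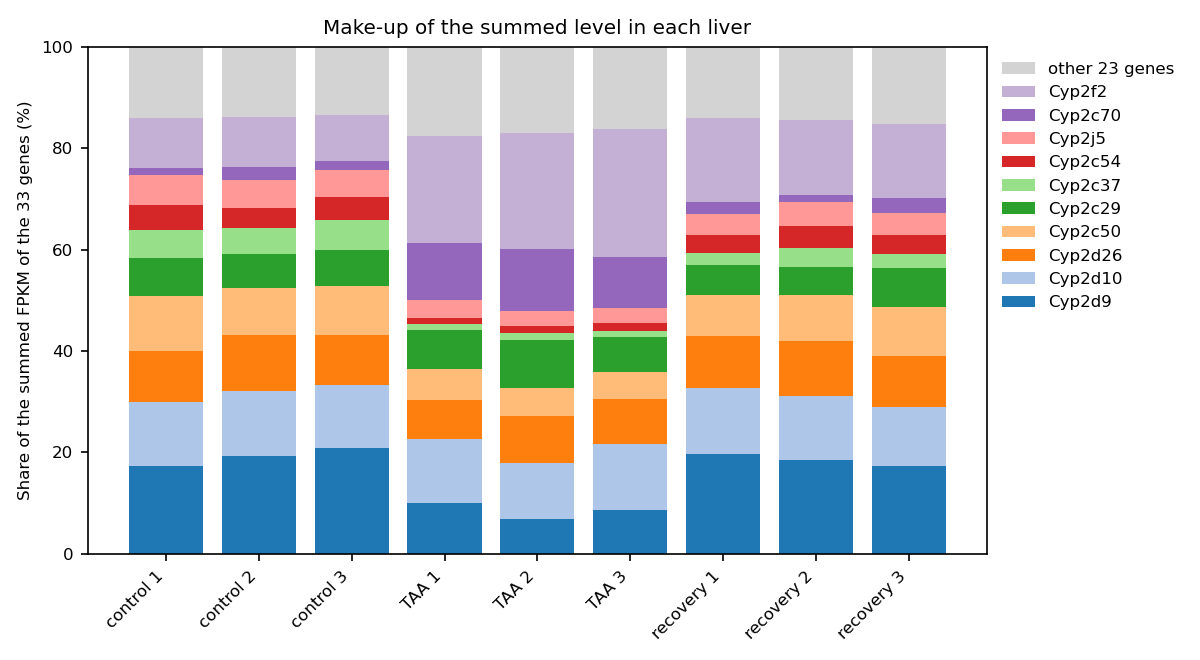
Share of each of 10 genes and of the other 23 in the summed FPKM of the 33 genes (%), 1 bar per liver. The share of Cyp2f2 was 9.18% to 9.82% in control, 21.2% to 25.3% in TAA and 14.7% to 16.5% in recovery livers, and these shares do not depend on the scaling factors.

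The make-up of the summed level therefore changed along with its size, as the plot of shares shows. In control livers the leading genes were Cyp2d9 (19.2 ± 1.7%), Cyp2d10 (12.6 ± 0.24%) and Cyp2d26 (10.3 ± 0.59%), and Cyp2f2 had rank 5 with 9.59 ± 0.36% (SD, n = 3). In TAA livers Cyp2f2 was first with 23.1 ± 2.1%, followed by Cyp2d10 with 12.2 ± 1.0% and Cyp2c70 with 11.1 ± 1.1%. Cyp2d9 then had rank 5, with 8.51 ± 1.6%. In recovery livers Cyp2d9 was first again with 18.5 ± 1.2%, and Cyp2f2 was second with 15.3 ± 1.0%. Neither the share of Cyp2d9 nor that of Cyp2f2 overlapped between control and TAA livers. For Cyp2d9 control and recovery livers overlapped, and for Cyp2f2 they did not. The share of Cyp2c37 was 5.62 ± 0.43% in control, 1.18 ± 0.13% in TAA and 2.98 ± 0.70% in recovery livers, again with no overlap. The shares were not tested. With 3 mice against 3, an exact permutation test of a single value cannot give a two-sided p below 0.1.

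Genes that work with these enzymes were described from lists. Of 8 partners of P450 enzymes, none rose and 2 fell in the TAA group, with a median change of -0.73 that was -0.09 without scaling and 0.50 with quantile normalization. Por, the electron donor, was at -0.98 (SE 0.08, adjusted p = 7.77e-05), and at -0.34 without scaling. Cyb5a, a second donor, fell (-1.12, SE 0.11, adjusted p = 0.000132). Cyb5a was at -0.48 without scaling and at 0.16 with quantile normalization, and was then no DEG. Cyb5b was at 0.26 and Cyb5r3 at 0.10, and neither was a DEG. In recovery relative to TAA livers 1 of the 8 partners rose and none fell (median 0.27). The counts were the same without scaling, while 1 rose and 2 fell with quantile normalization. Against the control group 1 partner was a lower DEG in recovery livers (median -0.25), but none was a DEG without scaling or with quantile normalization. Of 14 regulators of Cyp2 transcription, 7 fell and none rose (median -1.08), 2 fell without scaling and 3 with quantile normalization. Nr1i3 fell (-2.72, SE 0.10, adjusted p = 2.75e-06), as did Hnf4a (-1.11, SE 0.11, adjusted p = 0.00015) and Rxra, the partner of nuclear receptors (-1.25, SE 0.08, adjusted p = 2.61e-05), while Nr1i2 (PXR) was at -0.66. Hnf4a (-0.48 without scaling and -0.31 with quantile normalization) and Rxra (-0.61 and -0.57) were DEGs under neither alternative, and Nr1i3 (-2.08 and -2.38) was one under both. Nr1i2 was at -0.02 without scaling (adjusted p = 0.81). In recovery relative to TAA livers, 5 of the 14 rose and none fell (median 0.85), among them Nr1i3 (2.03, SE 0.13, adjusted p = 2.28e-05) and Hnf4a (1.07, SE 0.15, adjusted p = 0.000678). Against the control group none was a DEG. Nr1i3 was still at -0.69 in that comparison (SE 0.11, adjusted p = 0.0349), the only 1 of the 14 with an adjusted p under 0.05. Relative to TAA livers, 3 of the 14 rose both without scaling and with quantile normalization, and Hnf4a, at 0.51 and 0.36, was not among them.

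Of 8 tested genes of arachidonic acid metabolism, 5 fell and 1 rose in the TAA group (median -3.85), and 5 rose and 1 fell in recovery relative to TAA livers (median 3.64). Ephx2 fell (-3.0, SE 0.09, adjusted p = 1.65e-06), as did the fatty acid hydroxylases Cyp4a10 (-4.71, SE 0.19, adjusted p = 3.62e-06) and Cyp4a14 (-5.24, SE 0.31, adjusted p = 1.63e-05). The phospholipase Pla2g4a was at 0.78 (adjusted p = 0.0636). Without scaling and with quantile normalization 5 of the 8 fell as well, while 2 rose and none rose, respectively.

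Hepatocytes near the central vein and near the portal vein differ in their P450 enzymes, and genes of both zones were set beside the members. Of 10 pericentral genes, 5 fell and none rose in the TAA group (median -1.34), while 2 rose without scaling and 1 with quantile normalization beside 5 that fell, including Glul (-3.37, SE 0.11, adjusted p = 1.99e-06), Cyp2e1 (-3.65, SE 0.14, adjusted p = 3.58e-06) and Oat (-6.17, SE 0.24, adjusted p = 3.58e-06), with Cyp1a2 at -0.37 (0.26 without scaling and 0.52 with quantile normalization). Of 10 periportal genes, 4 fell and 1 rose (median -0.86, and -0.03 with quantile normalization), including Hal (-2.06, SE 0.13, adjusted p = 1.94e-05) and Gls2 (-1.37, SE 0.10, adjusted p = 4.4e-05), with Sds at -0.80 and Ass1 at -0.73 (0.65 with quantile normalization). Without scaling 2 of the 10 periportal genes fell and with quantile normalization 3, and Gls2, at -0.73 and -0.75, was then no DEG. The difference between the zones was not tested. Of the 10 tested genes among the other Cyp2 genes, 4 rose (Cyp2a4, Cyp2b9, Cyp2b10 and Cyp2s1) and 2 fell (Cyp2e1 and Cyp2u1), genes that were named after their values were seen. Without scaling 4 rose and 1 fell, and with quantile normalization 3 rose and 2 fell. Cyp2b10, the usual target of Nr1i3, rose in the TAA group (3.94, SE 0.48, adjusted p = 0.000402) and was the only one of the 10 that was a DEG in recovery relative to control livers (2.47, SE 0.43, adjusted p = 0.0439).

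Cell type markers were set beside these changes. Of 7 hepatocyte markers, 3 fell and none rose in the TAA group (median -0.5). Their summed scaled level was 39300 to 43900 in control, 23600 to 31200 in TAA and 49000 to 51300 in recovery livers. This sum was taken only after scaling, which lowered TAA levels relative to control by 0.64 on the log2 scale. Without scaling 1 fell and the median was 0.14. With quantile normalization 3 rose and none fell, and the median was 0.13. All 6 cholangiocyte markers rose, and their sum was 15.7 to 21 in control, 295 to 443 in TAA and 27.9 to 38.4 in recovery livers. All 7 stellate cell or myofibroblast markers rose, with sums of 13.5 to 14.1, 157 to 223 and 12.4 to 20.3, respectively, and with quantile normalization 6 of the 7 rose. None of these 3 lists had a tested marker at 0 throughout a group. Of the macrophage and lymphocyte markers 1 of 6 and 1 of 5 rose (4 and 3 without scaling), and of the 5 endothelial markers none was a DEG. The 6 skeletal muscle markers were at 0 in all control livers and summed to 0.0655 to 35.6 in TAA livers, with the highest sum in TAA mouse 3, and kidney tubule markers summed to at most 0.0485 in any library. The part of changed cell proportions in the levels of the 33 genes was not tested.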

How the data were processed

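RNA of 9 livers, 3 per group, was sequenced as 150-base read pairs. The authors aligned them with HISAT2 2.2.1 (mouse mm10), counted them on genes with featureCounts 1.5.0-p3 and deposited FPKM, without further scaling between libraries. Strand is not given in the sources used here. Each column was mapped to a mouse by its name.

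Each library was scaled by its median-of-ratios factor, from the 14005 genes above 0 in every library. Pairs of groups were fitted with limma 3.58.1 (R 4.3.3, eBayes with trend) on log2(scaled FPKM + 0.1), over the 6 libraries of each comparison, where the mean FPKM reached 0.1. The added 0.1 understates changes of low genes. Replicates are separate mice. FPKM hold no counts: the steps between low values gave an estimate of depth (54.7% to 62.5% of them whole within 0.08, where 16% would be if evenly spread), which was too few for a count test. On simulated data for TAA relative to control livers, 66, 67 and 67 tested genes were changed by 1.5, 2 and 3 on the log2 scale, up or down. Of these, 93.9%, 92.5% and 98.5% were recovered, with 1 false call among 13353 genes. The simulated difference in scale between the groups was a technical factor, which the scaling removes. Many more genes changed in the livers, so the simulation cannot show whether the scaling is right for them.

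Loci are those of the table (GRCm38), and 92.4% of all genes and all members but Cyp2c40 had the same locus in GENCODE M21. Members whose mean scaled FPKM reached 1, and lower ones that were DEGs, were given in every library. Of each list, at most the first 4 tested genes were named, except that the DEGs among the other Cyp2 genes were named after their values were seen. The members and lists were chosen with earlier results of these data known. Proteins were not analysed here. Python 3.11.15, numpy 2.4.6, pandas 2.3.3 and matplotlib 3.10.9 were used.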

Additional observations from a re-analysis of the deposited data

How the results depend on the processing

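Alternatives to the added value, the filter, the scaling, the variance trend, the fit of all 9 libraries, the replicate block and the set of mice were run. The falls and rises of the members in TAA livers depended most on the scaling. Values whose sign turned were, without scaling and in TAA relative to control livers, Cyp2c39 (0.39), Cyp2c68 (0.10), Cyp2f2 (0.41), Cyp2g1 (0.08) and Cyp2j6 (0.30), and with quantile normalization Cyp2c68 (0.14) and Cyp2f2 (1.01). In recovery relative to TAA livers they were Cyp2c39 (-0.24), Cyp2c40 (-0.38), Cyp2c68 (-0.06) and Cyp2j6 (-0.27) without scaling, and Cyp2c68 (-0.11), Cyp2f2 (-0.28) and Cyp2g1 (0.17) with quantile normalization. In recovery relative to control livers they were Cyp2c68 (0.04), Cyp2d10 (0.02), Cyp2d26 (0.05) and Cyp2j6 (0.04) without scaling, and Cyp2c68 (0.03), Cyp2d9 (0.10), Cyp2d10 (0.05), Cyp2d26 (0.09) and Cyp2j6 (0.01) with quantile normalization. None of these was a DEG in the scaled data. The number of members that fell in recovery relative to TAA livers was 1, but 3 without scaling and 2 with quantile normalization. The cause was not tested.

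With 1 mouse left out, 1 to 2 members rose and 16 to 17 fell in the TAA group, and 16 to 18 rose and 1 to 2 fell in recovery relative to TAA livers. Signs turned for Cyp2c39 in TAA relative to control livers (-0.36 to 0.04) and for Cyp2c40 in recovery relative to TAA livers (-0.05 to 0.43). In recovery relative to control livers they turned for Cyp2c38 (-0.09 to 0.28), Cyp2c39 (-0.17 to 0.33), Cyp2c67 (-0.02 to 0.13), Cyp2c68 (-0.14 to 0.05), Cyp2c70 (0 to 0.51), Cyp2d11 (0 to 0.23), Cyp2d12 (-0.54 to 0.07), Cyp2d22 (-0.01 to 0.06) and Cyp2j6 (-0.14 to 0.06), none of them DEGs.

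Mice share only a number across groups: deviations of same-numbered mice had r of -0.07 to 0.12. With the replicate block, 2 members rose and 16 fell in the TAA group, 18 rose and 1 fell in recovery relative to TAA livers and none was a DEG against the control group, and the block changed no call of a member. Over all tested genes it lowered the DEGs of recovery relative to control livers from 82 higher and 58 lower to 9 and 8. These counts were also low without the filter (27 and 21), with 1 added (40 and 40) and without the trend (49 and 36), and 151 were higher in 1 fit of all 9 libraries. With 1 mouse left out they were 15 to 67 and 16 to 41. In the TAA group, where 2389 were higher and 1131 lower, the counts were 4382 and 421 without scaling, 890 and 890 with 1 added, 1534 and 1355 with quantile normalization and 1176 and 1028 with a mean FPKM of at least 1. In recovery relative to TAA livers, 1003 higher and 2014 lower became 409 and 3728 without scaling, 749 and 711 with 1 added, 1198 and 1379 with quantile normalization, and 920 and 975 with a mean FPKM of at least 1. Depth limits the lowest members: Cyp2j8, Cyp2c65 and Cyp2j11 rest on at most 17.2 fragments in a library.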
